A study of Homo sapiens with 3 samples.

Results

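EP300 peaks were examined at 7 genes of the early cleavage embryo in naive H9 human embryonic stem cells: ARGFX, DUXA, LEUTX, TPRX1, DPRX, ZSCAN4 and RFPL2. The genes were listed by name, and their peaks were those that the authors' annotation assigned to 1 of these names. EP300 is a histone acetyltransferase and coactivator found at active promoters and enhancers, and H9 is an established human line. By their labels the cells were wild type and grew as naive cells in PXGL, that is, N2B27 with PD0325901 (a MEK inhibitor), XAV939 (a tankyrase inhibitor), a protein kinase C inhibitor and LIF at 10 ng/mL, over mouse embryonic fibroblasts. EP300 was immunoprecipitated in 2 samples, replicates 1 and 2 of 1 group, and the series has 1 input. Both EP300 samples were crosslinked in 1% formaldehyde for 10 min. The labels do not tell whether the replicates were grown separately, and their differences can be purely technical. With 1 group there was no condition to compare, and the values below are descriptions without a test.

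Of 65276 peaks in replicate 1, 11 were assigned to the 7 genes, and of 64896 in replicate 2, 8 were. ARGFX, LEUTX, TPRX1, DPRX and RFPL2 had at least 1 such peak in replicate 1, and TPRX1, DPRX and RFPL2 in replicate 2. DUXA and ZSCAN4 had none in either. Fold enrichment is the authors' value per peak against input, by the names of the peaks, and the percentile ranks a peak by it among all peaks of its own replicate. A reproducible region is a merged group of overlapping peaks of both replicates, and there were 46263. Positions are on GRCh38. Read depth is unknown because the peak tables hold no counts, so a missing peak shows only that none passed the authors' threshold.

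PRD-like homeobox genes encode transcription factors whose DNA-binding homeodomain is related to that of the Paired protein. ARGFX, LEUTX, TPRX1 and DPRX belong to a fast-evolving mammalian group thought to derive from copies of CRX, a photoreceptor homeobox gene of the OTX type. DUXA is related to DUX4, a factor that activates cleavage-stage genes. These genes are known for a short burst of expression around the activation of the embryonic genome and for silence in most later tissues. ZSCAN4, a zinc finger gene with a SCAN domain linked to telomere maintenance, and RFPL2, a RING finger gene of a primate-expanded family, are active in the same window but are not homeobox genes. Of the genes, 5 lie on chromosome 19.

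Occupancy of marker genes is read against the 72.7% of coding genes that had a reproducible region at their RefSeq 5' end. All 5 pluripotency markers had a reproducible region within 3 kb of their RefSeq 5' end, among them LIN28A with fold enrichment 21.0 in replicate 1 and 23.9 in replicate 2. Of the naive markers 6 of 8 had one, with KLF17 and KLF5 as exceptions that had one at another RefSeq start, and TFAP2C stood highest at 22.4 and 27.1. The naive share was near that of all coding genes. Fibroblast markers were also near it, at 4 of 6, with COL1A2 highest at 18.2 and 20.1, then THY1, PDGFRB and COL1A1, while LUM and POSTN were unoccupied. Occupancy does not measure expression, and a part of the feeder cells in these peaks was not tested.

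Peaks assigned to the 7 genes mostly lay below the median peak. Their fold enrichment ran from 2.96 to 4.80 in replicate 1, with a median of 3.74, and from 3.08 to 8.88 in replicate 2, with a median of 4.20. The median over all peaks was 4.51 in both replicates. Over both replicates together the median percentile of these 19 peaks was 33.5. In replicate 1, 6 of the 11 peaks overlapped a peak of replicate 2, and in replicate 2, 7 of 8 overlapped one of replicate 1. Over all peaks the shares were 74.5% and 73.9%. The 5 peaks without a counterpart in replicate 1 belonged to ARGFX, LEUTX, TPRX1 and DPRX.

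**Figure D1:**
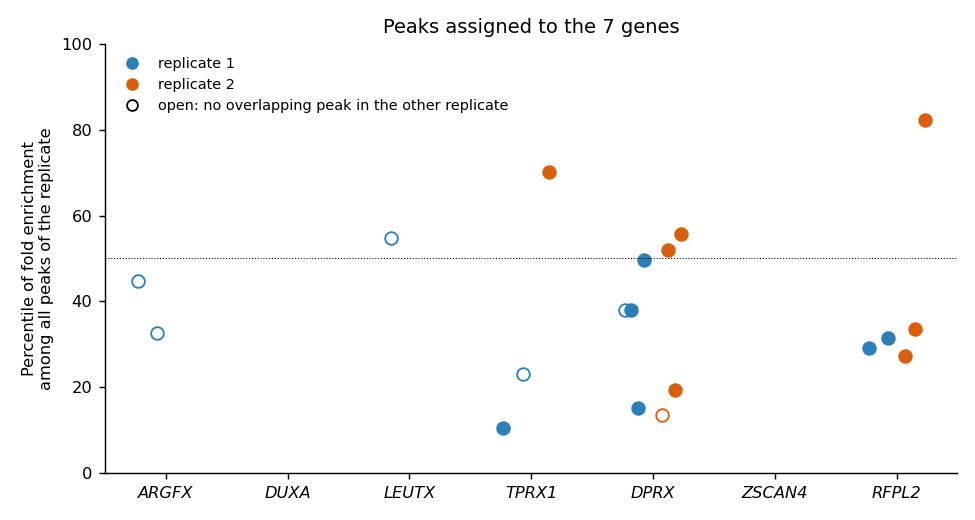
Each point is 1 peak assigned to a gene, in replicate 1 (blue) or replicate 2 (orange), and the vertical axis gives its percentile of fold enrichment among all peaks of that replicate. Only single peaks of TPRX1 and RFPL2 in replicate 2 lie above percentile 70, and DUXA and ZSCAN4 have no point.

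TPRX1, DPRX and RFPL2 (3 of 7 genes) had an assigned peak in both replicates at overlapping positions, while 70.4% of 19974 protein-coding genes did. Without replicate 2 the count was 5, with ARGFX and LEUTX added, against 73.9% of coding genes. It was 0 when only peaks of fold enrichment 5 or more were kept, against 57.4%. Measured by position, DPRX, ZSCAN4 and RFPL2 (3 of 7) had a reproducible region within 3 kb of the RefSeq 5' end, against 72.7% of 19768 coding genes whose 5' end could be decided and 76.8% of those on chromosome 19. With any RefSeq start accepted the same 3 genes were occupied, against 75.3% of coding genes. Among the 7 genes only LEUTX, ZSCAN4 and RFPL2 had a further RefSeq start available, so this count could change through LEUTX alone. The counts rest on different definitions, since the authors' annotation gives each peak to 1 gene and several of these genes have starts far apart. TPRX1 had a reproducible region at the authors' start alone, and ZSCAN4 and DPRX at their outer RefSeq ends.

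The ZSCAN4 locus held one of the strongest EP300 sites, although no peak carried the gene's name. The region spans chr19:57663647-57665194 and had fold enrichment 24.3 in replicate 1 and 24.2 in replicate 2. Its -log10 q-value was 124 and 121, it stood at percentile 99.6 in both lists, and the summits lay 3 bp apart. The authors assigned it to TPRG1LP1, a pseudogene inside ZSCAN4. ZSCAN4 runs on the plus strand from 57651476 to 57679152 in RefSeq, and the promoter table places a start at 57668935, 17459 bp inside that extent. The strong region therefore lies inside the gene extent and its edges stand at -5288 and -3741 bp from that inner start. No peak of either replicate touched the promoter window of the inner start itself.

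The RefSeq 5' end of ZSCAN4 carried a weak region instead, at chr19:57651248-57651853, with fold enrichment 3.70 and 3.75 at percentiles 32.0 and 33.0. It too was assigned to TPRG1LP1, as distal intergenic. The neighbouring zinc finger genes had stronger promoter regions. ZNF211, the nearest coding gene on the lower side, reached 9.44 and 9.68, and ZNF551, on the higher side, 11.8 and 9.38. Within 100 kb of ZSCAN4 there were 13 reproducible regions, near the median of 12 for coding genes of chromosome 19. Only the 2 at TPRG1LP1 lay in the gene extent, and the others were assigned to ZNF genes and ZIK1.

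The sequence before the inner ZSCAN4 start is shown because this is the window that EP300 peaks left free, with the strong site beyond it. Capitals mark matches, on either strand, to any of 5 short motifs searched: TAATCC (bound by PRD-like factors of the OTX type), TGCACAC (bound by ZSCAN4), GGGCGG (the GC box of SP and KLF factors), the POU octamer ATGCAAAT, and TATAAA (the TATA box). The sequences are from RefSeq, GRCh38.p14, 250 bases up to the base before the start.

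ZSCAN4, chr19:57668685-57668934, plus strand: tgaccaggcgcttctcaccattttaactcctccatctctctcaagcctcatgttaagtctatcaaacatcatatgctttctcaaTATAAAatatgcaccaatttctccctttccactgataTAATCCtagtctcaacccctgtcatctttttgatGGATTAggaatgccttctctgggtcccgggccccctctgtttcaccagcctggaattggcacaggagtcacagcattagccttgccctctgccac

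TAATCC occurred 2 times in the ZSCAN4 window, with its first base at -129 from the start on the gene's strand and at -95 on the other (GGATTA). This motif is present in 5.46% of 22132 promoter windows of coding genes. TATAAA occurred 1 time, at -166. The 300-base window, which includes 50 bases after the start, held 2 CG pairs, at percentile 6.03 of coding windows, and 43.3% G and C. A match describes the letters and shows no binding.

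DPRX had the densest surroundings of the 7 genes, with 21 reproducible regions within 100 kb and 15 within 20 kb. The count within 100 kb stood at percentile 94.6 of all coding genes and 89.6 of those on chromosome 19. DPRX runs on the plus strand of chromosome 19 from 53601114 to 53637014 in RefSeq. The strongest region, at chr19:53591658-53595270, ended 5844 bp upstream of the RefSeq 5' end and had fold enrichment 33.0 in replicate 1 and 30.1 in replicate 2, with a lower percentile of 99.9. Beside it a region of 4061 bp at chr19:53595483-53599543 reached 20.1 and 19.5, and its near edge, 1571 bp from the RefSeq 5' end, lies within the 3 kb counted as promoter. Both were assigned to ENSG00000268864, as were 8 of the 21 regions in both replicates. At the RefSeq 5' end itself a weaker region (chr19:53599681-53602351) had 5.52 and 4.17. Inside the gene, 3 further regions followed its 5' end, with 6.83 and 6.25, 3.83 and 5.40, and 9.52 and 5.91 in order of transcription.

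The DPRX start in the authors' annotation lies 30942 bp further in, at 53632056, and there the signal was low. A peak with fold enrichment 3.08 covered it in replicate 2 alone, with its summit 46 bp after the start. Peaks assigned to DPRX in both replicates formed 3 regions past the gene's end. The nearest (chr19:53637211-53637787) had fold enrichment 3.96 and 4.63, the next (chr19:53638015-53639064) 3.10 and 3.30, and the third (chr19:53639399-53641494) 4.50 and 4.84. An intronic peak with 3.96 was found in replicate 1 alone. All these values lie near or below the median peak, unlike the upstream pair.

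Further downstream the DPRX surroundings run into a cluster of microRNA genes. A region of 10418 bp (chr19:53661393-53671810) assigned to MIR512-2 began 24379 bp past the DPRX extent and reached 10.8 and 8.04. Nearer to the gene, the region chr19:53641800-53646204, assigned to the small RNA pseudogene RNU6-698P, had 8.27 and 11.7. ZNF331, 20844 bp away, had no region within 3 kb of its RefSeq 5' end, although the authors assigned 3 reproducible regions to it as promoter regions, the strongest (chr19:53520998-53521750) with 9.12 and 7.89. NLRP12, 156569 bp away on the other side, had one with 7.60 and 5.37. The microRNA genes are near copies of each other and can share reads. How reads mapping to several places were treated, there or upstream of DPRX, is not given in the sources used here.

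**Figure D2:**
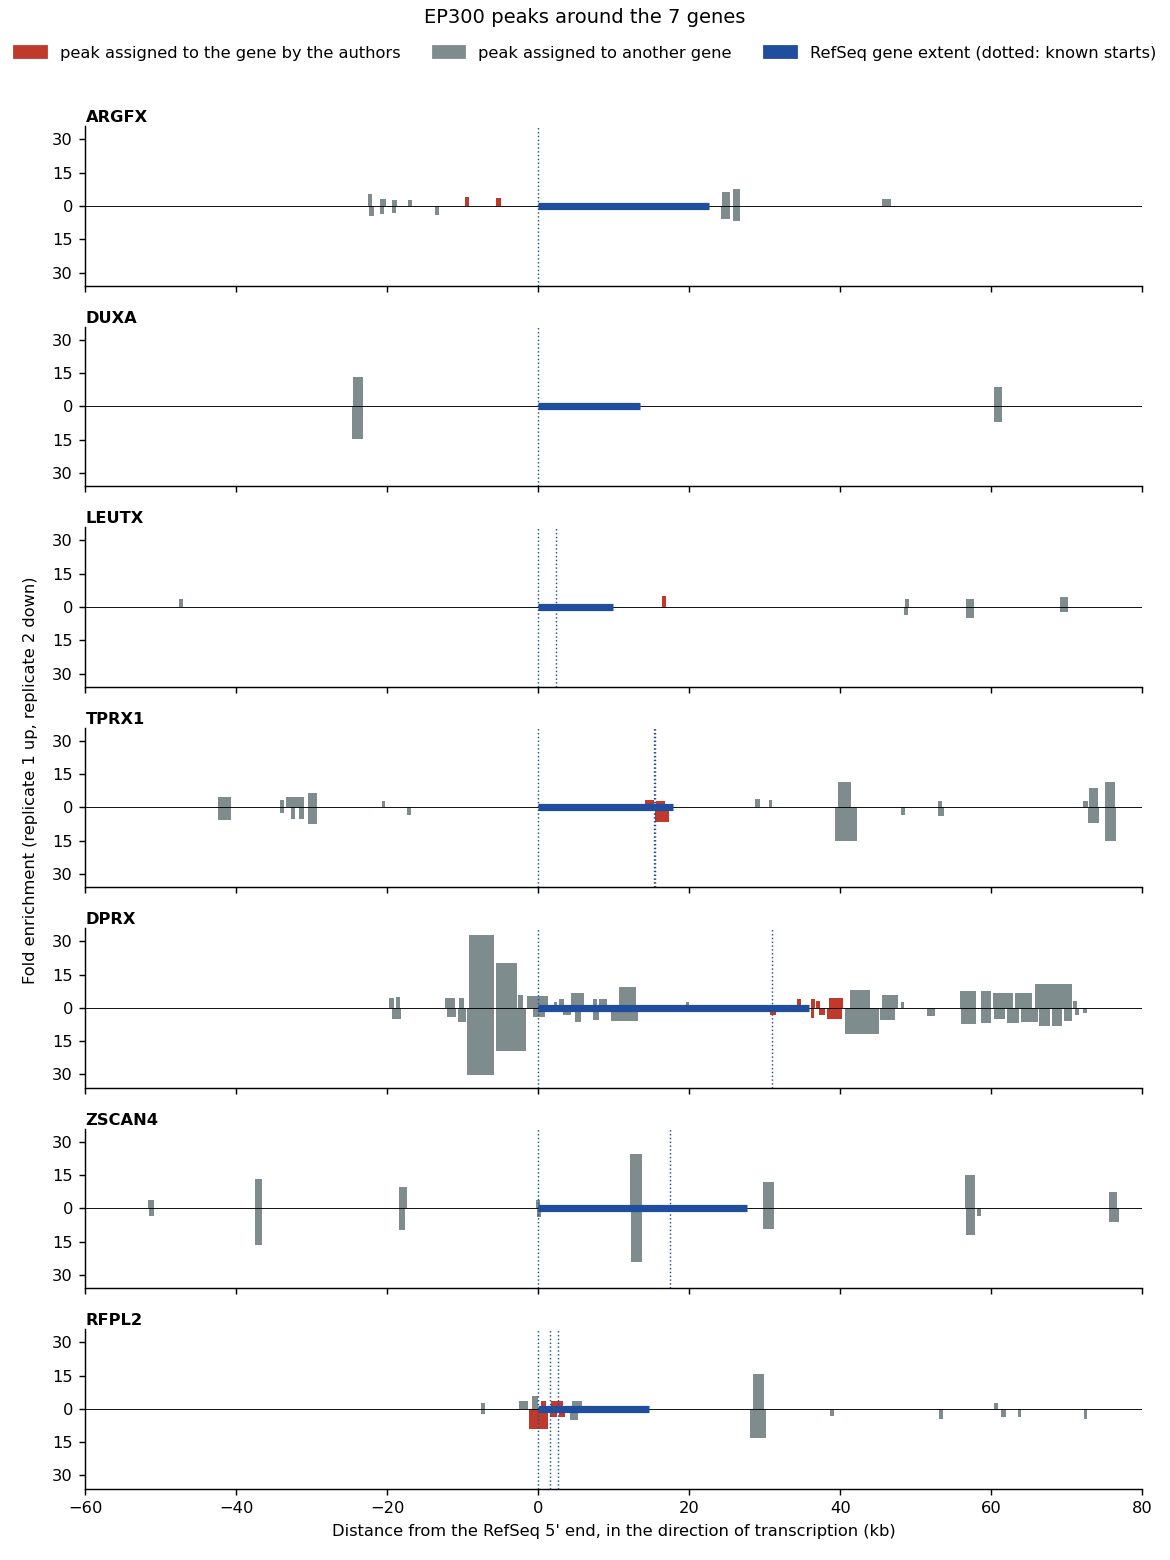
Bars are EP300 peaks around each gene, drawn at their width (the narrowest widened to be visible), with fold enrichment upward for replicate 1 and downward for replicate 2, against distance from the RefSeq 5' end in kb. The tall bars at DPRX (33.0 and 30.1) and ZSCAN4 (24.3 and 24.2) are grey, that is, assigned to other genes, and the red bars assigned to the genes themselves stay below 10.

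RFPL2 had a merged reproducible region over each of its annotated starts, although no start lay under peaks of both replicates. The gene runs on the minus strand of chromosome 22 from 32190438 to 32205073, and the annotations give starts at 32205073, 32203477 and 32202451. The region at the outermost start, chr22:32203825-32206321, had fold enrichment 5.79 in replicate 1 and 8.88 in replicate 2, at percentiles 65.9 and 82.3. Replicate 2 gave 1 peak of 2497 bp there, assigned to RFPL2. Replicate 1 gave a peak with 5.79 assigned to SLC5A4-AS1 (chr22:32205107-32205862) and a separate one with 3.68 assigned to RFPL2 (chr22:32204019-32204680), and neither covered the outermost start itself. SLC5A4-AS1 is a non-coding gene on the opposite strand whose RefSeq start lies 42 bp from that of RFPL2, so the genes cannot be told apart by a peak there. The region over the inner starts (chr22:32201571-32203566) was weaker, at 3.63 and 3.77, with summits 3 bp apart. Within it, 32203477 lay under a peak in replicate 2 alone and 32202451 in replicate 1 alone. A further region in the gene, assigned to IGLCOR22-1, had 3.72 and 5.00.

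The sequence before the outermost RFPL2 start is shown as the only printed window that peaks of both replicates touched.

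RFPL2, chr22:32205074-32205323, minus strand: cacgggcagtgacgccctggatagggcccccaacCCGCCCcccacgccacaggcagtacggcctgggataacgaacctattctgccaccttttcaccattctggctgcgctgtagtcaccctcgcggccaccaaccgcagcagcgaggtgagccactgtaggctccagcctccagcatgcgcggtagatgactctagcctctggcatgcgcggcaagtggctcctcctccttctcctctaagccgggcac

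This RFPL2 window held 19 CG pairs and 64.7% G and C, and peaks covered 217 of its 300 bases in replicate 1 and all 300 in replicate 2. It has 1 GC box, on the other strand, a motif present in 56.3% of coding windows. The start window of RFPL3, a close relative on the same chromosome, was similar in sequence: a stretch of 180 alignment columns had 153 identical bases (85.0%). RFPL3 was also occupied, with fold enrichment 7.65 and 5.91, by a region that is also the one at the RefSeq 5' end of SLC5A4. The genes cannot be told apart by it, and reads of such copies may be hard to place, so the values of both genes are uncertain. Within 100 kb of RFPL2 there were 6 reproducible regions, the median for all coding genes, and 5 of them lay within 20 kb. The strongest (chr22:32174937-32177001) lay 13437 bp past the gene's 3' end and had 15.8 and 13.0.

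TPRX1 had EP300 peaks over the starts of the authors' annotation, each in a single replicate, and none at its RefSeq 5' end. The gene lies on the minus strand of chromosome 19, from 47801232 to 47819051 in RefSeq, while the authors' starts are 47803689 and 47803558, over 15 kb inside. The region chr19:47801782-47803569 reached the inner of these, through the replicate 2 peak, and differed between replicates, with fold enrichment 2.96 in replicate 1 and 6.40 in replicate 2, at percentiles 10.5 and 70.2. Its summits lay 117 bp apart. A further TPRX1 peak with 3.40, chr19:47803658-47804909, was found in replicate 1 alone and covered the outer of these starts.

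The surroundings of TPRX1 hold its presumed ancestor and its closest copy. CRX begins 2885 bp beyond the RefSeq 5' end of TPRX1 and had no reproducible region within 3 kb of its own. The authors assigned to CRX a peak with 3.07 in replicate 1 alone and another with 3.21 in replicate 2 alone, at separate positions farther from that end. A region assigned to CRX, 29349 bp upstream of the TPRX1 5' end (chr19:47848400-47849616), had fold enrichment 6.73 and 7.25. TPRX2, named TPRX2P in the authors' annotation, carried a region within 3 kb of its 5' end (chr19:47859713-47861522) with 4.54 and 5.50. Of the 12 reproducible regions within 100 kb of TPRX1, the strongest lay at SELENOW, the nearest coding gene on the lower side, with 11.6 and 15.2.

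ARGFX, LEUTX and DUXA had no reproducible region in the gene extent or within 3 kb of a start. ARGFX lies on the plus strand of chromosome 3 from 121567949 to 121590622. Its assigned peaks were both in replicate 1 alone, with summits at -9483 and -5316 bp from the start and fold enrichment 4.26 and 3.74. The nearest reproducible region began 1530 bp past the end of the gene, at the promoter of FBXO40, with 6.38 and 5.83. The neighbouring one there, the strongest within 100 kb, had 7.65 and 6.67. On the other side POLQ, a DNA polymerase gene, had 5.61 and 4.73 at its promoter.

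LEUTX had 1 assigned peak, which only replicate 1 showed. Its fold enrichment was 4.80, at percentile 54.7, and its summit lay 14268 bp after the inner start. The gene lies on the plus strand of chromosome 19 from 39776453 to 39786291. It was the most isolated gene by distance, with the nearest reproducible region 38666 bp away (chr19:39824957-39825479, 3.50 and 3.76). Of its coding neighbours, CLC was unoccupied and DYRK1B, a kinase gene, had 3.47 and 4.82. The strongest of the 8 reproducible regions within 100 kb lay 81497 bp away, with 8.09 and 8.44, and was assigned to ENSG00000268088.

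DUXA had no peak of either replicate closer than 23266 bp. It lies on the minus strand of chromosome 19 from 57154021 to 57167485. The nearest region was the promoter of ZNF264 (chr19:57190751-57192151), with fold enrichment 13.1 and 14.6 at percentiles 93.5 and 95.1. ZIM3, the coding neighbour on the other side, was unoccupied, and the next region there (chr19:57106045-57107080, 8.77 and 6.80) lay 46941 bp from DUXA. Within 100 kb there were 4 reproducible regions, at percentile 34.0 of all coding genes and below the median of 12 for those on chromosome 19. The windows of DUXA and of the inner LEUTX start are shown as examples of windows without a peak.

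DUXA, chr19:57167486-57167735, minus strand: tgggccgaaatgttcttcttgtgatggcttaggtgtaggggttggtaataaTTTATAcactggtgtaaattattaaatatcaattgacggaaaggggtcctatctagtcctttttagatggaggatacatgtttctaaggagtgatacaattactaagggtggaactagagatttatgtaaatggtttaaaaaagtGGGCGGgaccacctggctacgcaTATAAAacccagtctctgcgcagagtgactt

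LEUTX, chr19:39778604-39778853, plus strand: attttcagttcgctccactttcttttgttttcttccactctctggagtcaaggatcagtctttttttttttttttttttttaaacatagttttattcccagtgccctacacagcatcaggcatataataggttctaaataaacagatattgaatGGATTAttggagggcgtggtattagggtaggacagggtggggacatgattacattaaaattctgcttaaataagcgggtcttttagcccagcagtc

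The DUXA window has a TATAAA with its first base at -31 on the gene's strand, another at -199 on the other strand, and a GC box at -54. A TATAAA is present in 9.46% of coding windows. The LEUTX window has 1 TAATCC, on the other strand at -96, and its other start has none of the 5 motifs. Neither the octamer (1.65% of coding windows) nor TGCACAC (3.54%) occurred in any of the 6 RefSeq windows available, which belong to LEUTX, DUXA, ZSCAN4 and RFPL2. The LEUTX windows held 5 and 4 CG pairs and the DUXA window 6. The median was 27 for coding windows that overlap a reproducible region and 5 for the others. Over all coding windows it was 21. Of the 6 windows, peaks touched those of RFPL2, with 19 and 17 CG pairs (percentiles 45.0 and 41.2), the second in replicate 2 alone.

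**Figure D3:**
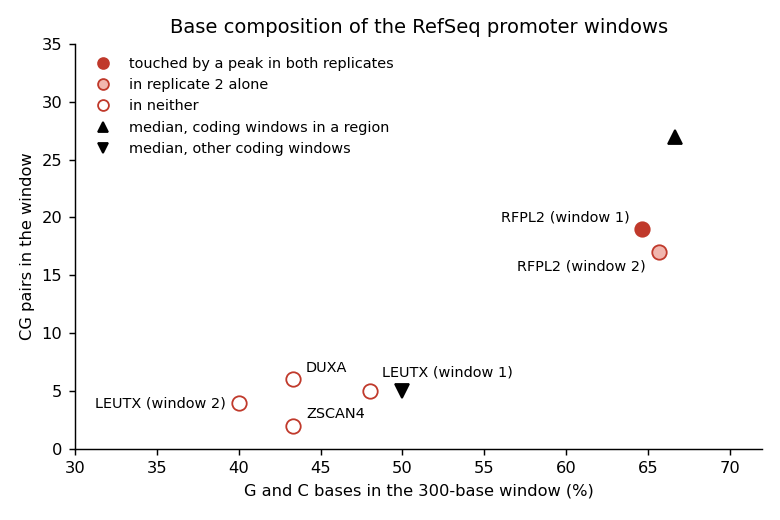
Each circle is a 300-base RefSeq window of LEUTX, DUXA, ZSCAN4 or RFPL2, by its share of G and C bases and its number of CG pairs, filled where a peak touched it. The RFPL2 windows (19 and 17 CG pairs) lie between the median of coding windows in a region (27) and that of coding windows outside one (5), and the other windows hold 2 to 6 CG pairs.

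The number of regions around the 7 genes varied widely. Within 100 kb they had from 4 (DUXA) to 21 (DPRX) reproducible regions, against a median of 6 for all coding genes. All 7 had at least 1, as did 95.6% of coding genes, and within 20 kb 5 of 7 had one, against 87.2% of coding genes. The 69 regions around them had a median lower percentile, the smaller of the replicates' values, of 61.2, against 56.5 for all reproducible regions. Of the 69, 5 were assigned to 1 of the 7 genes in both replicates, and 1 more in a single replicate. The matching share around other coding genes was not computed.

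**Figure D4:**
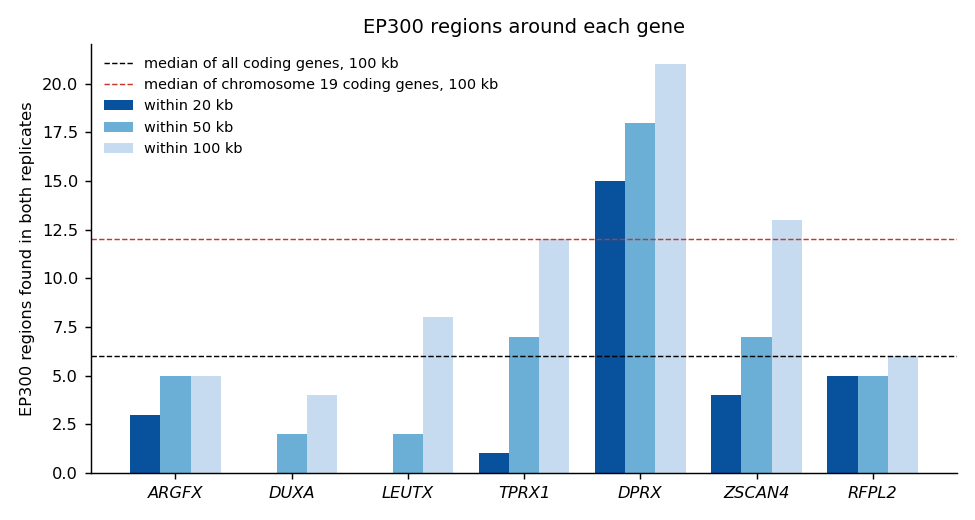
Bars give the number of reproducible EP300 regions within 20, 50 and 100 kb of each gene, and dashed lines the median within 100 kb for all coding genes (6) and for those of chromosome 19 (12). DPRX stands above the chromosome 19 line at 21, and DUXA and LEUTX have none within 20 kb.

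The wider list of genome activation genes was occupied at few promoters, with 5 of 28, against 72.7% of all coding genes. These were SLC34A2, a phosphate transporter gene, with fold enrichment 14.5 and 16.1, FBXO15 with 12.5 and 11.2, KHDC1 with 10.93 and 10.96, RFPL3 and TPRX2. With any RefSeq start accepted KLF17 was added, giving 6 of 28, against 75.3% of coding genes. DUX4, DUXB and the oocyte gene NOBOX, further homeobox genes, were unoccupied, as were ZSCAN5B, CCNA1, KDM4E, TRIM43 and TRIM49. DUX4, TRIM49 and PRAMEF1, the last also unoccupied, have near-identical copies, so a missing peak there is uncertain. The list holds further unoccupied genes of the TRIM, PRAMEF, MBD3L and KDM4 families. Whether reads can be placed at these was not examined, so the low count may in part be uncertain too. RFPL1 could not be tested because its strand was not known from the tables used. ALPPL2, CPHX1 and CPHX2 were also on the list but absent by these names from the coding genes used.

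PRD class homeobox genes of later development were occupied at 19 of 33 promoters, below the 72.7% of all coding genes. With a window of 10 kb the count was 26 of 33, against 78.7% of coding genes, so the difference depended on the window. OTX2, a factor of the primed state and the head, was highest at 23.5 and 20.1, followed by the mesendoderm gene MIXL1 at 17.6 and 14.4. PHOX2A (14.4 and 12.1), GSC (9.86 and 10.2), ALX1 (9.77 and 9.62) and HESX1 (8.66 and 10.0) came next, then OTX1, GSC2 and PRRX1. Each of these named genes had a fold enrichment over 5 in both replicates at its RefSeq 5' end. Of ZSCAN and RFPL relatives, 15 of 23 were occupied, closer to the 72.7%. This list shares RFPL3, RFPL4A, RFPL4B, ZSCAN5B and the untested RFPL1 with the other genome activation genes. ZSCAN12 (16.8 and 18.0), ZSCAN5A (13.0 and 14.3) and ZSCAN10 (12.9 and 16.6), a pluripotency-associated gene, stood highest, followed by ZSCAN1, ZSCAN29, ZSCAN32, ZSCAN2, ZSCAN26, ZSCAN21 and ZSCAN9. The difference between these lists and the 7 genes was not tested.

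**Figure D5:**
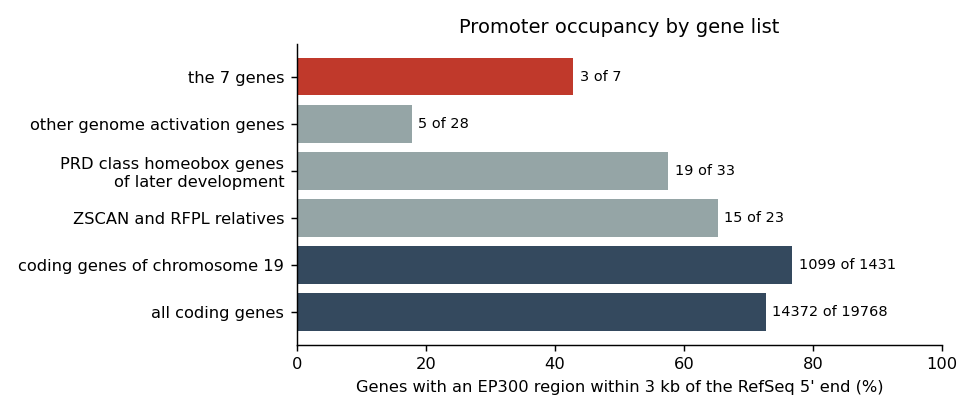
Bars give the share of genes with a reproducible EP300 region within 3 kb of the RefSeq 5' end, with the counts beside them. The 7 genes (3 of 7) and the other genome activation genes (5 of 28) lie below the 72.7% of all coding genes. So do the PRD class genes of later development (19 of 33), and the relatives (15 of 23) come closest to it.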

How the data were processed

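The authors deposited 1 peak table per EP300 sample, so peaks were found per sample. By the table names, ChIPseeker assigned them to genes. The submitters' processing notes name fastp 0.19.11 and GRCh38. Sources used here do not give the aligner, peak caller or threshold. The deposited values, per the file headers, are a signal value (fold enrichment, a ratio) and -log10 p- and q-values. The largest q-value was 0.0497 in replicate 1 and 0.0498 in replicate 2. A score, deposited by the authors and equal to 10 times the -log10 q-value, stayed unused. The input has no table used here, and depth is unknown.

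Rows of equal interval (81061 and 80208 rows) were joined at their highest fold enrichment. Chromosomes 1 to 22 and X were used, and peaks overlapping by 1 bp were shared. Genes were 19974 protein-coding RefSeq genes of GRCh38.p14. Strand came from the RefSeq promoter table for 15813 and from the authors' annotation for 3027. The remaining 1134 were examined at either end, and 206 of them, occupied at a single end, were dropped. The 7 genes, the lists and the motifs were chosen with earlier results of these data known. Named by rule were the 7 genes with their peaks, the nearest coding gene on each side, the gene of the nearest reproducible region, and up to 10 occupied genes per list by the lower fold enrichment. Others were named after their values were seen, and a gene that the rule takes is not reported here. Alternatives changed the peak threshold, overlap, replicates, windows and start. Python 3.11.15, pandas 2.3.3 and Biopython 1.88 were used, and the interval functions were tested on simulated data.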

Additional observations from a re-analysis of the deposited data

How the results depend on the processing

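The alternatives were stricter peaks, a stricter overlap, single replicates, other windows, the authors' own assignment and, added after seeing the data, any RefSeq start. Genes with an assigned peak in both replicates numbered 3, but 0 when peaks needed a fold enrichment of 5. The count was 1 (DPRX) when they needed a -log10 q-value of 5, against 65.7% of coding genes. With an overlap of 50% of each peak it was 2 (DPRX and TPRX1), against 67.8%. It was 3 to 5 with 1 replicate left out (5 without replicate 2, with ARGFX and LEUTX). Occupied promoters stayed at 2 or 3 of 7, while the share of all coding genes ran from 59.0% to 78.7%. That share was 59.0% with the fold enrichment minimum, 68.1% with the -log10 q-value minimum and 69.25% with the 50% overlap. It was 66.9% by the authors' assignment, 69.3% with a window of 1 kb and 78.7% with 10 kb. ZSCAN4 was lost under both stricter filters, RFPL2 under an overlap of 50% of each peak, and the authors' assignment gave RFPL2 and TPRX1. PRD class genes of later development fell from 19 to 11 with the fold enrichment minimum of 5, where all coding genes fell from 72.7% to 59.0%. Their count rose to 26 of 33 with a window of 10 kb, against 78.7%, and to 22 by the authors' assignment, against 66.9%. The gap between this list and all coding genes thus depended on the definition. Other genome activation genes numbered 4 of 28 with the fold enrichment minimum, against 59.0%, and 7 of 28 without replicate 1, against 75.2%. The median percentile of peaks assigned to the 7 genes, 33.5, was 32.5 to 42.8 in single replicates. Motif matches in the 6 windows numbered 9 on both strands and 5 on the gene's strand, as fewer positions are read. No paired analysis was possible because the EP300 samples form 1 group. With peak lists and no read counts, depth limits on missing peaks could not be assessed.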
